A study of Mus musculus with 9 samples.

Results

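The genes described here are 35 members of the family of 2-oxoglutarate dioxygenases, enzymes that fumarate can inhibit, measured in murine Tc17 cells exposed to dimethyl fumarate (DMF). They were listed by gene symbol: 13 histone demethylases of the KDM, JMJD and PHF families, 3 TET enzymes, 4 oxygen-sensing hydroxylases (Egln1, Egln2, Egln3 and Hif1an), 4 collagen hydroxylases (P4ha1, P4ha2, Plod1 and Plod3), 9 enzymes of the ALKBH and FTO family, and Ogfod1 and Jmjd6. Each symbol was found once among the 41388 genes of the deposited table, and all 35 were among the 11599 genes tested, those with 10 or more normalized counts on average. The fewest reads behind any single value of a member were 12, for P4ha2 in 1 library. Tc17 cells are CD8+ T cells that produce IL-17, and were raised here from naive CD62L+CD44- CD8+ T cells of lymph nodes and spleen of C57BL/6 mice. They were primed with anti-CD3, anti-CD28, TGF-β, IL-6, anti-IFN-γ and 50 U/ml IL-2 in culture for 2 days. Every culture contained 0.2% DMSO, alone (Ctrl), with 20 µM DMF (DMF), or with 20 µM DMF and 50 µM glutathione (DMF + GSH). Each group had 3 poly(A) RNA-Seq libraries, of which replicate 1 belonged to preparation batch 1 and replicates 2 and 3 to batch 2. The study's methods describe young adult mice matched for age and sex, but nothing says how many animals stood behind a group, so that p-values measure the spread between these libraries. Xist, which is transcribed from the inactive X chromosome of female cells, had a normalized count of 2.20 to 5.20 in the libraries of replicate 1 and 12006 to 18099.5 in those of replicates 2 and 3. The Y-linked genes Eif2s3y, Ddx3y, Kdm5d and Uty summed to 3124 to 3650.5 in replicate 1 and to at most 1.42 in the others. Male cells thus made up replicate 1 and female cells replicates 2 and 3 in all 3 groups, and batch and sex cannot be told apart, while the groups did not differ in either.

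Enzymes of this family bind iron, oxygen and 2-oxoglutarate, hydroxylate a protein, DNA or RNA substrate and release succinate. Where the hydroxylated group is a methyl group bound to nitrogen, as on histone lysines, it is lost, which removes the methyl mark. The methyl group of cytosine, which the TET enzymes oxidize, is not lost in that step. Fumarate and succinate resemble 2-oxoglutarate and can occupy its place in the enzyme, and DMF is an ester of fumarate that also reacts with the thiol of glutathione. The measurements are of mRNA, and the activity of the enzymes was not measured.

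Depth was between 7671772 and 14511926 reads per library. The cells had the markers of CD8+ T cells: summed over Cd8a and Cd8b1, the normalized count was 12145 to 14257 in Ctrl, 13744 to 17402 with DMF and 11829 to 15974 with DMF + GSH, and Cd4 had at most 4.40. Cd3d, Cd3e and Cd3g of the T cell receptor complex summed to 9338 to 12668 in Ctrl, 8015 to 9815 with DMF and 9627 to 13523 with DMF + GSH. By limma, Cd8a was higher with DMF than in Ctrl (log2 fold change 0.31, p adj = 0.0378), and of the CD3 genes Cd3g had the smallest p (−0.53, p adj = 0.0569); their part in the results of the members was not tested. Il17a and Il17f summed to 2888 to 4476 in Ctrl, 753 to 1936 with DMF and 2971 to 4978 with DMF + GSH. Markers of B cells and NK cells summed to at most 14.6 and 4.16. The myeloid markers Csf1r, Lyz2, Itgax and Cd14 summed to 189 in Ctrl replicate 3 and to at most 24.2 in the others. In bulk RNA, fewer cells of a type and less RNA per cell cannot be told apart.

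The members spanned a wide range of levels. Per kb of exon, the most abundant in Ctrl was Alkbh5, which removes the m6A mark from mRNA, at a normalized count of 526 ± 58.5 (SD, n = 3). P4ha1, a catalytic subunit of collagen prolyl 4-hydroxylase, followed at 452 ± 64.3 per kb, and Egln1, the main oxygen sensor acting on HIF, at 409 ± 38 per kb. Neither Alkbh5 and P4ha1 nor P4ha1 and Egln1, neighbours in the order, differed beyond their SD. At the other end stood Plod1 at 22.6 ± 1.59, P4ha2 at 6.41 ± 3.87 and Tet1 at 2.95 ± 1.05 per kb. Of the TET enzymes, which oxidize methylated cytosine in DNA, Tet3 at 109 ± 14.6 per kb stood above Tet2 at 46.0 ± 4.96 per kb by more than their SD, and Tet1 was the least abundant of all 35 members. Among the histone demethylases, Phf2 was the most abundant per kb in Ctrl (278 ± 13.7), followed by Kdm4a (247 ± 7.05) and Kdm3a (236 ± 14.4), and Kdm5b was the least (53.4 ± 10.7). Of the 34 steps between neighbours in this order, 5 were wider than the SDs on either side: below Phf2, Egln2, Alkbh7, Tet2 and Plod1.

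**Figure D1:**
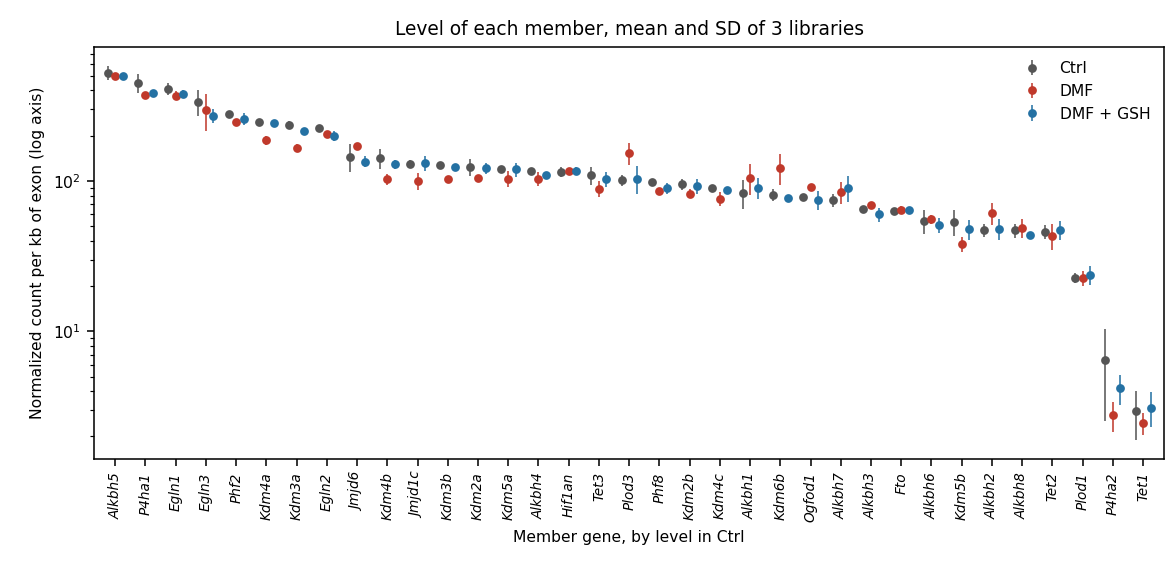
Level of each member as normalized count per kb of exon (vertical log axis), ordered by the mean in Ctrl. Points are means and bars SDs of 3 libraries in Ctrl (grey), DMF (red) and DMF + GSH (blue). Alkbh5 leads at 526 per kb in Ctrl, and Plod1, P4ha2 and Tet1 stand apart at the low end.

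The first comparison, of DMF with Ctrl, asked which of these genes change in expression when the fumarate ester is present. With the preparation batch in the model, 8 members fell and 3 rose at an adjusted p under 0.05. Those that fell were 6 histone demethylases (Kdm3a, Kdm3b, Jmjd1c, Kdm4a, Kdm4b and Kdm5b), the TET enzyme Tet3 and the collagen prolyl hydroxylase P4ha2. Those that rose were the H3K27 demethylase Kdm6b, the lysyl hydroxylase Plod3 and Alkbh1, which acts on modified bases of tRNA and DNA. Lower expression was thus called in 22.9% of the members against 13.3% of all genes tested, and higher expression in 8.57% of the members against 14.6% of all genes. In either direction, 31.4% of the members were called and 28.0% of all genes, which is a similar share. The median log2 fold change was −0.17 over the members and 0.0052 over all genes tested, and 23 of the 35 members lay below 0.

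The replicate number marks libraries that deviated together, and a fit with the number as a block called more members. In that fit 15 members fell (21.4% of all genes did) and 4 rose (23.7% of all genes). It added Kdm2a, Kdm2b, Kdm4c, Kdm5a, Phf2, Phf8 and P4ha1 to those that fell, and Jmjd6 to those that rose. Counted without any model, 12 members had all 3 DMF libraries below all 3 Ctrl libraries, or 34.3% of them, as had 19.8% of all genes. The reverse order was found for 4 members (Kdm6b, Plod3, Ogfod1 and Alkbh3), or 11.4%, against 21.6% of all genes. By limma, 0 members passed the stricter threshold of the study, which 2.89% of all genes passed. That threshold was a p adj under 0.01 with a log2 change of 0.75 or more in either direction. Kdm3a, Kdm4a and Jmjd1c met its p adj only. An unadjusted p under 0.05 by limma was found for 19 of the 35 members and for 4811 of the 11599 genes tested. The count of members called depended on single libraries, as did that of all genes, which was 3242 with every library. Without DMF replicate 1 it was 1 member (Kdm3a) and 110 of all genes, without Ctrl replicate 1 it was 3 and 628, without DMF replicate 3 it was 4 and 953, and without Ctrl replicate 2 it was 5 and 1162. With the replicate block the count of members stayed between 12 and 20, and that of all genes between 4102 and 5466, when any 1 library was left out. Without Ctrl replicate 3, the library with myeloid markers, 12 members were called, 10 of them lower.

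**Figure D2:**
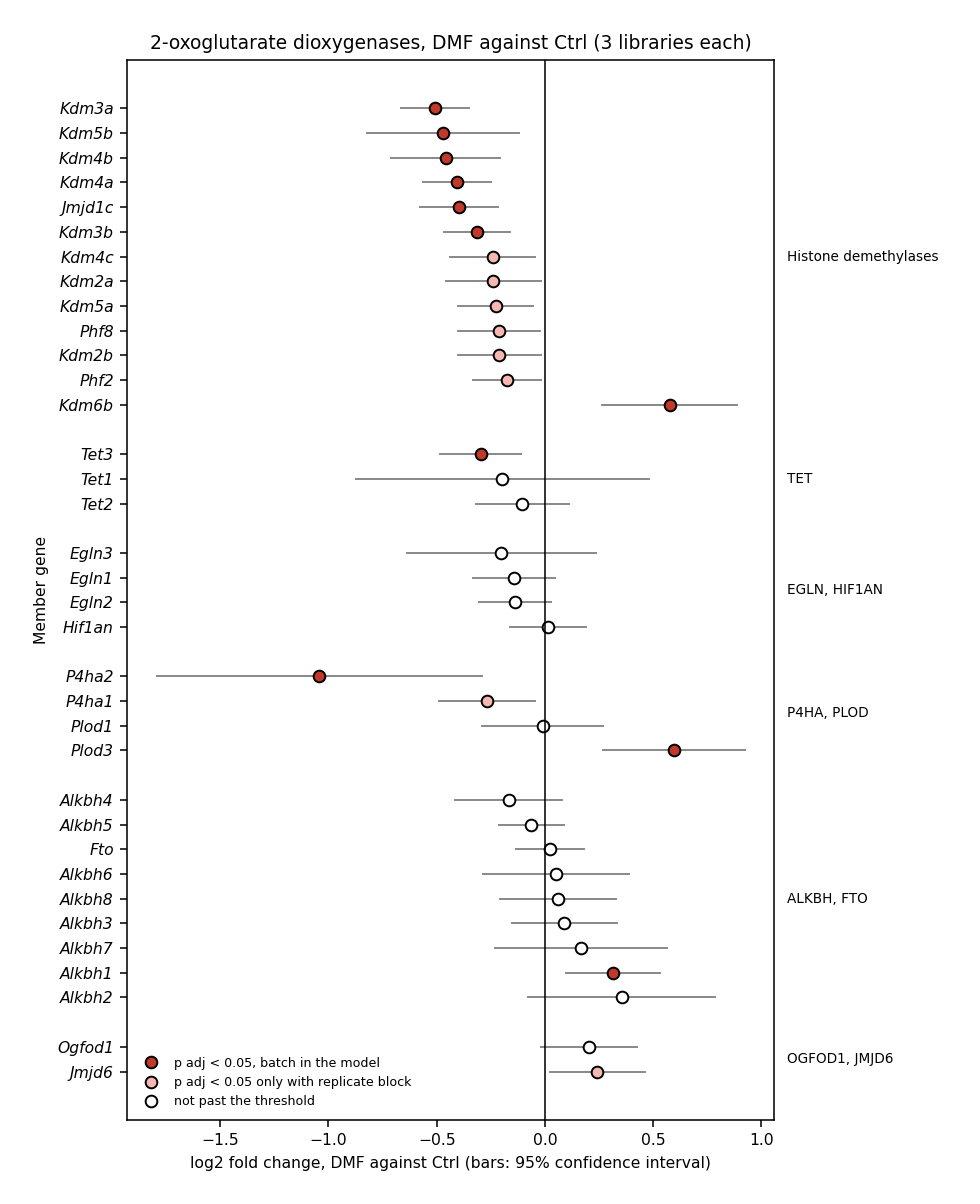
The log2 fold change of each of the 35 members, DMF against Ctrl (horizontal axis), by enzyme family, with its 95% confidence interval from 3 libraries per group. Filled red points passed p adj under 0.05 with the batch in the model, pale points only with the replicate block, and open points neither; 12 of the 13 histone demethylases lie below 0 and Kdm6b lies above.

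Of the 13 histone demethylases, 12 had a lower mean log2 level with DMF than in Ctrl and 1, Kdm6b, a higher one, and this split was the same under every alternative run; of all genes tested 49.4% lay below 0. With the batch in the model 6 fell (13.3% of all genes did) and 1 rose, and with the replicate block 12 fell (21.4% of all genes did) and 1 rose. When 1 library was left out, 1 (without DMF replicate 1) to 7 fell, and 6 to 12 with the block. Their median log2 fold change was −0.24. For all 12, DMF was below Ctrl within each of the 3 replicate numbers, and so in both preparation batches, as it was for 32.0% of all genes.

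Demethylation of H3K9, a mark of silent chromatin, is carried out by the Kdm3 and Kdm4 enzymes, and among these Kdm3a (Ensembl gene on chr6:71588972-71632990, GRCm38) had the smallest p. Its normalized count in replicates 1, 2 and 3 was 1872, 2079.9 and 1878 in Ctrl, 1437, 1369.7 and 1293 in DMF, and 1838, 1765 and 1718 in DMF + GSH. The DMF libraries lay below all others, and the DMF + GSH libraries lay just below the Ctrl libraries. The log2 fold change of DMF against Ctrl was −0.51 ± 0.071 (SE), p adj = 0.00432, so that the level fell by 29.7%, and within replicates 1, 2 and 3 the difference was −0.38, −0.60 and −0.54. Kdm3a is the only member that was called in all 30 alternative fits. Its relative Kdm3b had counts of 1847, 1852 and 1694 in Ctrl, 1411, 1397 and 1531 in DMF, and 1715, 1763 and 1729 in DMF + GSH. All DMF libraries were below the Ctrl libraries, with a log2 fold change of −0.31 ± 0.068 (SE), p adj = 0.0112. This call was lost without Ctrl replicate 1, Ctrl replicate 2 or DMF replicate 1, and kept in all 9 such fits with the replicate block. In the annotation 24.6% of the exon bases of Kdm3b are shared with an antisense gene, and the sources used here do not give how strand was treated in counting.

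Jmjd1c, the third member of the Kdm3 subfamily (chr10:67096125-67256326), had counts of 2429, 2348 and 2204 in Ctrl, 1963, 1526 and 1846 in DMF, and 2631, 2169 and 2210.1 in DMF + GSH. The DMF libraries were below the libraries of both other groups, and replicate 2 was the lowest of them. Its log2 fold change was −0.39 ± 0.081 (SE), p adj = 0.00958, with differences of −0.31, −0.62 and −0.26 within replicates 1, 2 and 3. Kdm4a, a demethylase of trimethylated H3K9 and H3K36 (chr4:118136957-118180043), had counts of 1465, 1437 and 1385 in Ctrl, 1117, 1124 and 995 in DMF, and 1417, 1448 and 1326 in DMF + GSH. The DMF libraries were below all others, with differences from Ctrl of −0.39, −0.35 and −0.48 (log2) within replicates 1, 2 and 3 and an overall log2 fold change of −0.41 ± 0.070 (SE), p adj = 0.0065. Without DMF replicate 1 neither Jmjd1c nor Kdm4a was called (the adjusted p of limma was 0.0631 and 0.0556). With the replicate block both were called in all 9 fits that leave out 1 library. Kdm4b, of the same subfamily, had counts of 716, 789 and 579 in Ctrl, 544, 499.9 and 463 in DMF, and 654, 661 and 583 in DMF + GSH. Again all DMF libraries were below all Ctrl libraries, with a log2 fold change of −0.46 ± 0.11 (SE), p adj = 0.017. The call of Kdm4b was lost without Ctrl replicate 1, Ctrl replicate 2, DMF replicate 1 or DMF replicate 3, and kept in all 9 such fits with the replicate block.

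The other demethylases of H3K9 had smaller differences. Kdm4c had counts of 518, 543 and 508 in Ctrl, 401, 436 and 493 in DMF, and 514, 502 and 499.8 in DMF + GSH. The lowest Ctrl library exceeded the highest DMF library by little, and the log2 fold change was −0.24 ± 0.087 (SE), p adj = 0.0626 (0.0212 with the replicate block). Phf2 had counts of 1445, 1592 and 1543 in Ctrl, 1354, 1399 and 1302 in DMF, and 1296, 1542 and 1426 in DMF + GSH, with a log2 fold change of −0.17 ± 0.070 (SE), p adj = 0.0881 (0.0214 with the block). Phf8, which also acts on H4K20, had counts of 874, 952 and 943 in Ctrl, 844, 770.4 and 775 in DMF, and 845, 895 and 755 in DMF + GSH. Its log2 fold change was −0.21 ± 0.084 (SE), p adj = 0.0847 (0.0215 with the block). For Phf2 and Phf8 the DMF libraries lay below the Ctrl libraries without overlap, whereas their DMF + GSH libraries overlapped with DMF.

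Kdm2a and Kdm2b remove methyl groups from H3K36, and Kdm2b also brings a Polycomb complex to CpG islands. Kdm2a had counts of 1738, 2031 and 1576 in Ctrl, 1532, 1473 and 1500.1 in DMF, and 1839.5, 1828 and 1581 in DMF + GSH. Its log2 fold change was −0.24 ± 0.10 (SE), p adj = 0.0951 (0.00713 with the replicate block), and the DMF libraries were tightly grouped below the others. The difference was uneven, at −0.18, −0.46 and −0.071 (log2) within replicates 1, 2 and 3. Over the 30 alternative fits the log2 fold change of Kdm2a was −0.32 to −0.12. Kdm2b had counts of 957, 1127 and 1031 in Ctrl, 842, 965 and 883 in DMF, and 939.6, 1135 and 932 in DMF + GSH. DMF replicate 2 was slightly above Ctrl replicate 1, and the log2 fold change was −0.21 ± 0.086 (SE), p adj = 0.0922 (0.00898 with the block).

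Kdm5a and Kdm5b erase H3K4 methylation, a mark of active promoters. Kdm5b had counts of 820.0, 1084 and 748 in Ctrl, 567, 713 and 617 in DMF, and 875, 837 and 651 in DMF + GSH. All DMF libraries were below the Ctrl libraries, but Ctrl replicate 2 stood well above the other two, and the log2 fold change of −0.47 ± 0.16 (SE), p adj = 0.0497 is at the threshold. It was not called without replicate 1 or 2 of Ctrl, replicate 1 or 3 of DMF, or replicate 1 or 2 of DMF + GSH, and with the block it was called in all 9. Kdm5a had counts of 1746, 1768 and 1613 in Ctrl, 1676, 1347 and 1375 in DMF, and 1876, 1678 and 1515 in DMF + GSH. DMF replicate 1 was within the range of Ctrl, and the log2 fold change was −0.23 ± 0.077 (SE), p adj = 0.0525 (0.00673 with the block).

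Kdm6b, which erases the repressive H3K27 mark and is induced by many stimuli in immune cells (chr11:69398508-69413675), went the other way. Its counts were 529, 619 and 543 in Ctrl, 1064, 681 and 815 in DMF, and 514, 559 and 544 in DMF + GSH. All DMF libraries were above all others, although unevenly, since the difference from Ctrl was 1.01, 0.14 and 0.58 (log2) within replicates 1, 2 and 3. The log2 fold change was 0.58 ± 0.14 (SE), p adj = 0.0164, a rise of 49.1%. It was lost without Ctrl replicate 1, DMF replicate 1 or DMF replicate 3, and kept in all 9 such fits with the block. An antisense transcript covers 4.11% of its exon bases.

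**Figure D3:**
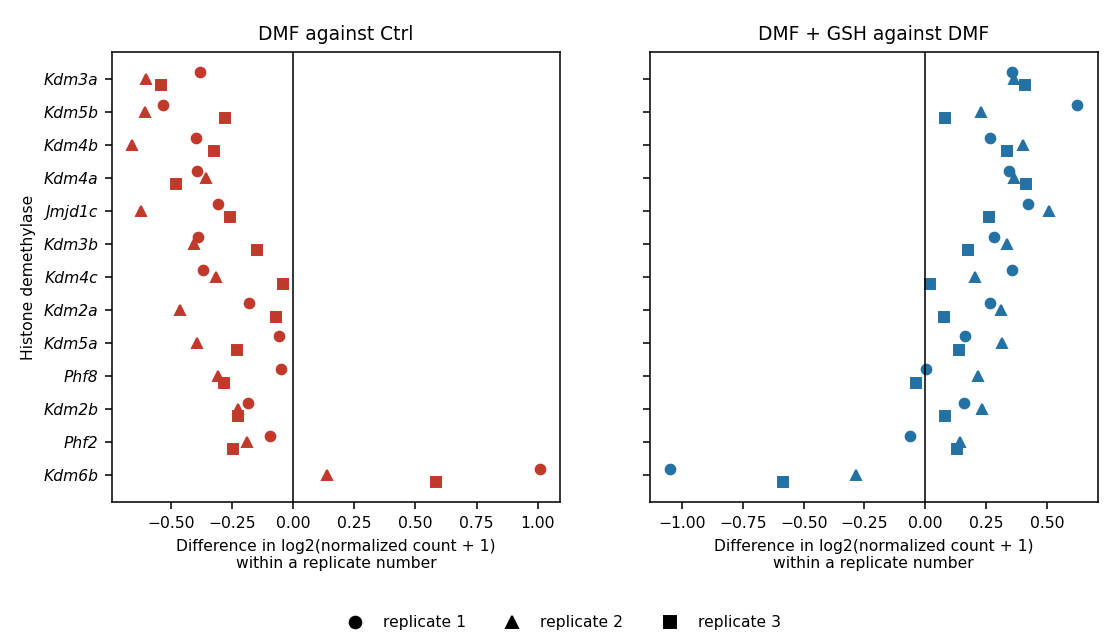
Differences in log2(normalized count + 1) within each replicate number (horizontal axes) for the 13 histone demethylases, DMF against Ctrl (left, red) and DMF + GSH against DMF (right, blue). Circles, triangles and squares are replicates 1, 2 and 3. Both panels use the same DMF libraries, so a high or low DMF value shifts the 2 panels in opposite directions; on the left 12 genes lie below 0 and Kdm6b above 0 in all 3 replicates.

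Of the TET enzymes, Tet3 alone passed the test. Its counts were 2068, 1819.8 and 1579.8 in Ctrl, 1665, 1476 and 1306 in DMF, and 1895, 1738 and 1500.3 in DMF + GSH. The groups overlapped, because replicate 1 was high and replicate 3 low in each group, but within replicates 1, 2 and 3 the difference of DMF from Ctrl was an even −0.31, −0.30 and −0.27 (log2). The log2 fold change was −0.30 ± 0.084 (SE), p adj = 0.0281, and 1.79e-04 with the replicate block. The call was lost without Ctrl replicate 1, Ctrl replicate 2, DMF replicate 1 or DMF replicate 3, and kept in all 9 such fits with the block. Tet2 had counts of 858, 780.3 and 691 in Ctrl and 873, 584 and 731 with DMF, where DMF was below Ctrl in replicate 2 and above it by little in replicates 1 and 3, and a log2 fold change of −0.10 ± 0.10 (SE), p adj = 0.437. Tet1, with counts between 27 and 61.6 in the 9 libraries, had an interval of −0.87 to 0.48 around its log2 fold change of −0.20, so that changes within it were not detectable at this depth.

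None of the oxygen-sensing hydroxylases passed the test by limma, edgeR or DESeq2, or with the replicate block, and 0 had an unadjusted p under 0.05 by limma. Egln1, Egln2 and Egln3 hydroxylate prolines of HIF-α in the presence of oxygen, which marks it for degradation, and Hif1an hydroxylates an asparagine that blocks its co-activators. Egln2 had counts of 639, 633 and 623 in Ctrl, 566, 579 and 576 in DMF, and 514, 598 and 564 in DMF + GSH. Its DMF libraries lay below its Ctrl libraries without overlap, but the difference was small, with a log2 fold change of −0.14 ± 0.074 (SE), p adj = 0.185. Egln1 had counts of 1429, 1623 and 1359 in Ctrl and 1223, 1409 and 1359 with DMF and a log2 fold change of −0.14 ± 0.084 (SE), p adj = 0.227. Egln3, a gene that HIF itself induces, was the most uneven, with counts of 820.0, 1097 and 771 in Ctrl and 785, 573 and 1012 with DMF and within-replicate differences of −0.063, −0.94 and 0.39 (log2). Both Egln1 and Egln3 were called in 2 of the 9 fits with the block that leave out 1 library. Hif1an differed by 0.015 ± 0.079 (SE), p adj = 0.903, with a 95% confidence interval of −0.16 to 0.19.

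Among the collagen-modifying enzymes the subunit P4ha2 fell with DMF, P4ha1 passed the test with the replicate block but not with the batch in the model, and the lysyl hydroxylase Plod3 rose. P4ha2 (chr11:54100095-54131665) was scarce, with counts of 28.1, 67.8 and 24.2 in Ctrl, 12.7, 19.7 and 19.4 in DMF, and 19.8, 31.2 and 27.2 in DMF + GSH. The DMF libraries were below the Ctrl libraries, and Ctrl replicate 2 was far above the other two. This gave a log2 fold change of −1.04 ± 0.34 (SE), p adj = 0.0439 (0.00601 with the replicate block), from differences of −1.09, −1.73 and −0.31 within replicates 1, 2 and 3. Without Ctrl replicate 2 it was −0.65 with p adj = 0.167, and 8 of the 9 fits that leave out 1 library did not call P4ha2. With the block P4ha2 was called in 8 of the 9 such fits. P4ha1 had counts of 1880.1, 2111 and 1584 in Ctrl, 1495, 1631 and 1476 in DMF, and 1608, 1573 and 1561 in DMF + GSH. Its log2 fold change was −0.27 ± 0.10 (SE), p adj = 0.0681 (0.00299 with the replicate block). Within replicates 1, 2 and 3 the difference was −0.33, −0.37 and −0.10 (log2). Over the 30 alternative fits the log2 fold change of P4ha1 was −0.39 to −0.16. Without the block P4ha1 was called lower by DESeq2 and by limma in 1 of the 9 fits that leave out 1 library, that without Ctrl replicate 3. With the block it was called in 8 of the 9 such fits. The fibroblast markers Col1a1, Col1a2, Col3a1 and Pdgfra, mostly Col1a1, summed to 18.5 to 21.8 in Ctrl, 2.90 to 11.6 with DMF and 14.1 to 22.4 with DMF + GSH, and their part in the levels of P4ha1 and P4ha2 was not tested.

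Plod3, which hydroxylates and glycosylates lysines of collagen (chr5:136987019-136996648), had counts of 413, 472 and 485 in Ctrl, 700.4, 577 and 809 in DMF, and 372, 459.6 and 573 in DMF + GSH. All DMF libraries were above all Ctrl libraries. Plod3 had a log2 fold change of 0.60 ± 0.15 (SE), p adj = 0.017, a rise of 51.2%, and the difference was 0.76, 0.29 and 0.74 (log2) within replicates 1, 2 and 3. Without replicate 1 or 2 of Ctrl, or replicate 1 or 3 of DMF, it was not called, and with the block it was called in all 9 such fits. Of its exon bases 11.9% are shared with other genes, mainly the antisense gene Znhit1. Its relative Plod1 had counts of 159, 159.8 and 141 in Ctrl and 171, 151 and 135 with DMF and a log2 fold change of −0.010 ± 0.12 (SE), p adj = 0.957.

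Because several of these hydroxylase genes are textbook targets of HIF, the promoters of 4 of them and of Kdm3a, the member with the smallest p and also a known HIF target, are shown with the core of the HIF binding site. Promoters came from RefSeq (GRCm38.p6), where 30 of the 35 members had an entry; Kdm2a, Kdm3b, Kdm4b, Kdm5a and Kdm6b were not matched. The letters searched were ACGTG and GCGTG on both strands, in the 250 bases before the start annotated in RefSeq. For P4ha2 that start lies 829 bases downstream of the gene start given above, so its sequence lies inside the gene. ACGTG was found in 16.6% of all 32851 promoters and in at least 1 promoter of 13 of the 30 members, and GCGTG in 28.2% of all promoters and in 18 of the 30 members. A member can have several promoters, so that these shares are not on the same base. ACGTG also lies within the E-box CACGTG, of which there was none in the 5 sequences shown. P4ha1 lies at chr10:59323046-59323295 (plus strand), P4ha2 at chr11:54100674-54100923 (plus strand), Egln1 at chr8:124949255-124949504 (minus strand), Egln3 at chr12:54203875-54204124 (minus strand) and Kdm3a at chr6:71632918-71633167 (minus strand). Capitals mark the matches to either motif, read 5′ to 3′ on the strand of the gene:
P4ha1: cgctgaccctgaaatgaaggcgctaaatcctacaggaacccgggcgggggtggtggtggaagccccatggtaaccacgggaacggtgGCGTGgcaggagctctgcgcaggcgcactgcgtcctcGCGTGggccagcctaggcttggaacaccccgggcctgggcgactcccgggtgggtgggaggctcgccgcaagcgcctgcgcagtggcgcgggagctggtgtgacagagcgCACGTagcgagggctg
P4ha2: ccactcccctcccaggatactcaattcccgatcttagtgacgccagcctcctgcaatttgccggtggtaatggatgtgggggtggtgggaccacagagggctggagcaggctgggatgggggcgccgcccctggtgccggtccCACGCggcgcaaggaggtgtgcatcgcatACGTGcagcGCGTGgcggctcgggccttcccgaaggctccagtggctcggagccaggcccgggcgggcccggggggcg
Egln1: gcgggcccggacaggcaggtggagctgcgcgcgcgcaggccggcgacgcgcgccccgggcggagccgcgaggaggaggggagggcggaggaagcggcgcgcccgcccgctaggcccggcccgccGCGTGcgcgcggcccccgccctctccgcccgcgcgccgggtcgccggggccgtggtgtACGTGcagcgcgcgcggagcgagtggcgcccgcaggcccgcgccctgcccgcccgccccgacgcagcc
Egln3: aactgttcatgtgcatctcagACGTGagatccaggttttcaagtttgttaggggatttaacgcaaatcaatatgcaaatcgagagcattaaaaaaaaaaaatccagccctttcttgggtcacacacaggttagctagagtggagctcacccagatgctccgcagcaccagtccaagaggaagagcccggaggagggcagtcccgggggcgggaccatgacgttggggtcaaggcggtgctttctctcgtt
Kdm3a: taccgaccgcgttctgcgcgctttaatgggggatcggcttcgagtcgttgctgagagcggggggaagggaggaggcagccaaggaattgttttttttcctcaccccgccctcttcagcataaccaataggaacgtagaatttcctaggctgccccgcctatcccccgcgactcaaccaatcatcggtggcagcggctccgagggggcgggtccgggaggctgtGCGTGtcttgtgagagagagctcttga

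Kdm3a has 3 promoters in RefSeq, of which the one nearest the annotated gene start is shown, and the other two hold no match. Of the sequences shown, P4ha1 and P4ha2 each hold 3 matches, Egln1 2, and Egln3 and Kdm3a 1 each. P4ha2 and Kdm3a fell with DMF, P4ha1 passed the test with the replicate block but not with the batch in the model, and Egln1 and Egln3 did not pass the test in either fit, so that genes with and without a called difference hold the letters. A match describes the sequence and does not show binding.

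The ALKBH and FTO enzymes, several of which remove alkyl or methyl groups from bases of DNA or RNA, had small differences, with 7 of the 9 above 0 and a median log2 fold change of 0.060. Alkbh1 was the 1 member called. Its counts were 689, 481 and 482 in Ctrl, 869, 566 and 626 in DMF, and 678, 492 and 604 in DMF + GSH. Groups overlapped because replicate 1 was the highest in each, whereas the difference of DMF from Ctrl within replicates 1, 2 and 3 was 0.33, 0.23 and 0.38 (log2). Its log2 fold change was 0.31 ± 0.10 (SE), p adj = 0.037. It was not called without DMF replicate 1, DMF replicate 3 or any 1 of the Ctrl libraries, and with the block it was called in all 9 such fits.

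The erasers of m6A were the best-measured of this family. Alkbh5 had counts of 2773, 3468 and 3198 in Ctrl and 2871, 3092 and 3042 with DMF, with a log2 fold change of −0.062 and a 95% confidence interval of −0.21 to 0.089. Fto had counts of 838, 782 and 850.4 in Ctrl and 901, 813 and 801 with DMF, with a log2 fold change of 0.025 and an interval of −0.13 to 0.18. For both, the libraries of the groups overlapped, and differences beyond these intervals were not seen. Alkbh2 and Alkbh3, which repair alkylated bases, had log2 fold changes of 0.36 ± 0.19 (SE), p adj = 0.192, and 0.090 ± 0.11 (SE), p adj = 0.555. The antisense gene Usp30 shares 29.5% of the exon bases of Alkbh2. The 4 others, Alkbh4, Alkbh6, Alkbh7 (a mitochondrial protein) and Alkbh8 (a tRNA modifier), had log2 fold changes between −0.17 and 0.17 and did not pass the test in either fit.

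Ogfod1, which hydroxylates a ribosomal protein, and Jmjd6, a lysyl hydroxylase of splicing factors, were both above 0. Ogfod1 had counts of 441, 479 and 458 in Ctrl, 509.9, 545 and 532 in DMF, and 416, 388 and 507 in DMF + GSH. Its DMF libraries lay above its Ctrl libraries without overlap, with a log2 fold change of 0.20 ± 0.10 (SE), p adj = 0.152 (0.0638 with the block). Jmjd6 had counts of 549, 832 and 665 in Ctrl, 743, 815 and 832 in DMF, and 571, 653 and 672 in DMF + GSH. Ctrl replicate 2 was as high as the DMF libraries, and the log2 fold change was 0.24 ± 0.10 (SE), p adj = 0.0905 (0.022 with the block).

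**Figure D4:**
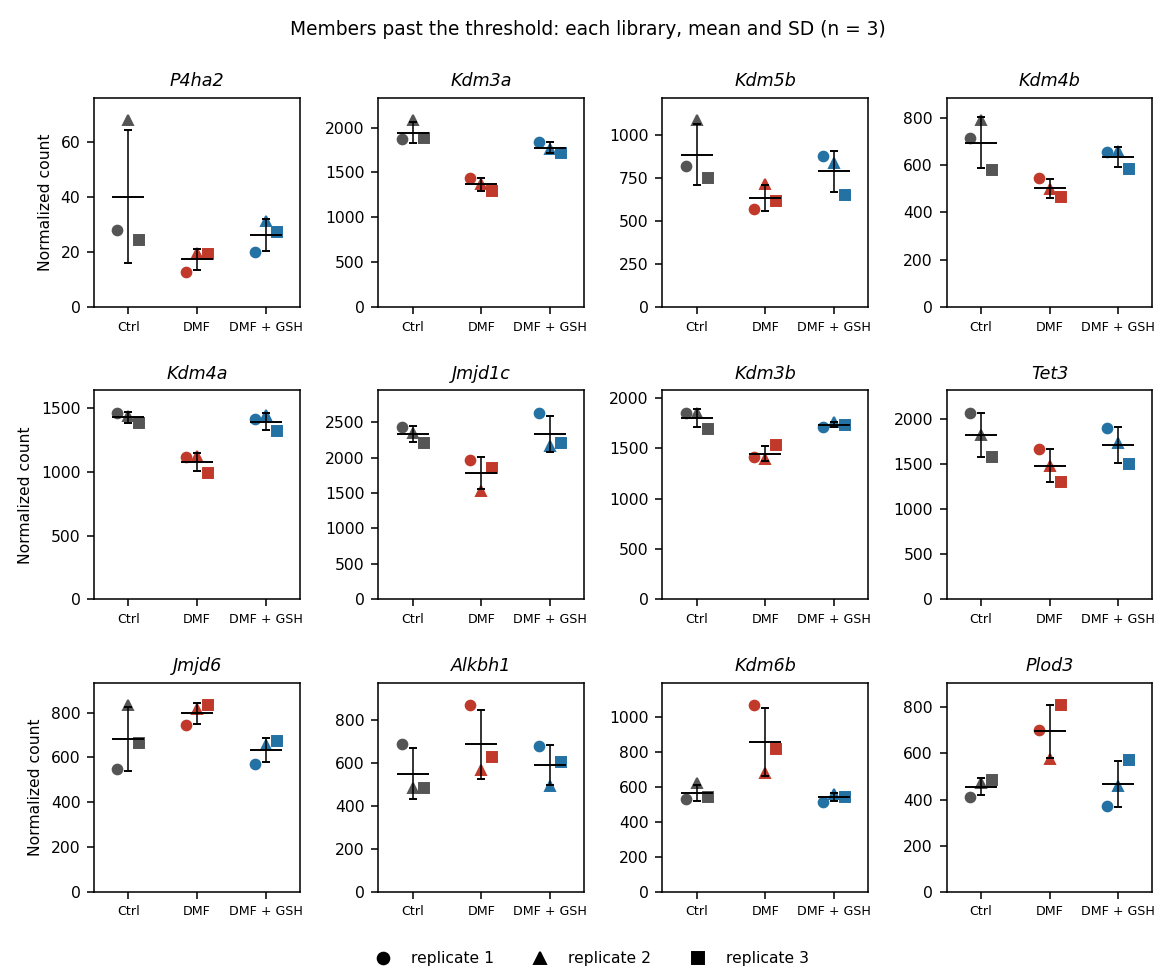
Normalized counts (vertical axes, from 0) of the 12 members that passed the test in DMF against Ctrl or in DMF + GSH against DMF, in Ctrl (grey), DMF (red) and DMF + GSH (blue). Symbols are the 3 replicates, and bars the mean and SD. For Kdm3a, Kdm4a and Jmjd1c all DMF libraries lie below the libraries of both other groups, and for Kdm6b and Plod3 all lie above.

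The second comparison, of DMF + GSH with DMF, asked which differences are seen when glutathione is added to DMF. It shares the DMF libraries with the first comparison, so that a chance deviation of these libraries enters both with opposite sign, and the values are given side by side only. With GSH, 4 members were higher (11.4% of the members, against 9.99% of all genes tested) and 3 were lower (8.57%, against 12.4%). Both shares are close to those of all genes. Higher with GSH were Kdm3a, by 0.38 ± 0.071 (SE), p adj = 0.0118, Kdm4a, by 0.37 ± 0.070 (SE), p adj = 0.0118, Jmjd1c, by 0.40 ± 0.081 (SE), p adj = 0.0135, and Kdm3b, by 0.26 ± 0.068 (SE), p adj = 0.0241 on the log2 scale. In each of these 4 genes all DMF + GSH libraries were above all DMF libraries, an order found for 8 members (22.9%) and 17.8% of all genes. Lower with GSH were Kdm6b (−0.64 ± 0.14 (SE), p adj = 0.0155), Plod3 (−0.58 ± 0.15 (SE), p adj = 0.0233) and Jmjd6 (−0.34 ± 0.10 (SE), p adj = 0.0369), each again without overlap between the groups.

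With the replicate block, 10 members were higher (19.9% of all genes were) and 5 lower (21.6% of all genes). The block added Kdm4b (0.00168), Tet3 (0.00438), Kdm5b (0.00865), Kdm5a (0.0137), Kdm2a (0.0144) and Kdm2b (0.0477) on the higher side, the values being p adj. On the lower side it added Ogfod1 (0.0132) and Alkbh1 (0.0431). Among the demethylases, 12 of 13 were above 0 and Kdm6b was below 0, with a median log2 fold change of 0.22. Of all genes tested 50.2% lay below 0. The split was 11 above and 2 below when DMF + GSH replicate 2 was left out without the block. It was also 11 and 2 with the block when DMF replicate 2 was left out. Phf2 and Phf8, called lower with DMF under the block, differed between DMF + GSH and DMF by 0.070 ± 0.070 (SE), p adj = 0.497, and 0.060 ± 0.084 (SE), p adj = 0.633. P4ha1, likewise lower with DMF under the block, differed by 0.045 ± 0.10 (SE), p adj = 0.774, and P4ha2 by 0.57 ± 0.34 (SE), p adj = 0.241. By limma without the block, 0 members were called when DMF replicate 1, DMF + GSH replicate 1 or DMF + GSH replicate 2 was left out, and 1 without DMF replicate 3. The count of all genes called fell in the same fits, from 2592 to 15, 10, 143 and 107. In the fits that called 0 members, 9, 8 and 7 members had an unadjusted p under 0.05, as had 2835, 3076 and 3171 of the 11599 genes. With the block 10 to 15 members, and 3581 to 4873 of all genes, were called whichever library was left out.

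The third comparison, of DMF + GSH with Ctrl, asked what differs from solvent when both DMF and GSH are present. By limma, no member passed the test (0.0% of all genes did), and 2 members, Egln2 and P4ha1, had an unadjusted p under 0.05, as had 222 of the 11599 genes. The count of members was also 0 by edgeR and by DESeq2 and with the replicate block. Egln2 differed by −0.18 (log2), with an interval of −0.35 to −0.014, and all its DMF + GSH libraries were below its Ctrl libraries. P4ha1 differed by −0.22, with an interval of −0.44 to −0.0025. For Kdm3a the difference was −0.13, with an interval of −0.29 to 0.028, and its DMF + GSH libraries too were all below its Ctrl libraries. That order was found for 2 members (5.71%) and for 2.39% of all genes. Kdm4a, Jmjd1c and Kdm6b differed by −0.033 (−0.19 to 0.12), 0.0016 (−0.18 to 0.18) and −0.062 (−0.37 to 0.25). Over the 13 demethylases the log2 fold changes lay between −0.16 and 0.0016, with 12 below 0, as were 50.3% of all genes. When Ctrl replicate 2 was left out, 7 lay below 0 and 6 above, and with the block 9 and 4.

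Genes that work beside the members were counted from lists. Of 21 other 2-oxoglutarate dioxygenases tested, 3 fell with DMF and 1 rose, and 5 fell and 2 rose with the replicate block. The falls were Kdm7a (−0.85 ± 0.13, p adj = 0.00563), Kdm6a (−0.25 ± 0.066, p adj = 0.0218) and Phyh (−0.61 ± 0.18, p adj = 0.0331), and the rise, named after its value was seen, was Mina (0.22 ± 0.070, p adj = 0.0434). DESeq2 called 4 of this list lower and did not call Mina. Kdm7a is a demethylase of the same subfamily as Phf2 and Phf8, and Kdm6a erases the same mark as Kdm6b but was lower where Kdm6b was higher. The histone demethylases that use flavin in place of 2-oxoglutarate were not called by limma, edgeR or DESeq2 (0 at an unadjusted p under 0.05), at 0.15 ± 0.077, p adj = 0.17 for Kdm1a, and 0.13 ± 0.081, p adj = 0.264 for Kdm1b, although Kdm1a was higher with the replicate block (p adj = 0.0342). Of 22 histone methyltransferases, which write the marks that the members erase, 8 fell, and 11 fell and 3 rose with the block, led by Kmt2c (−0.49 ± 0.072, p adj = 0.00481), Kmt2a (−0.42 ± 0.068, p adj = 0.00602) and Kmt2e (−0.55 ± 0.10, p adj = 0.00722). Of 23 genes of the HIF pathway, 9 fell and 1 rose, and 14 fell and 1 rose with the block. Those with the smallest p were the mitophagy receptor Bnip3l (−0.90 ± 0.15, p adj = 0.0065), Hif1a itself, the substrate of the Egln enzymes (−0.33 ± 0.063, p adj = 0.00743), and Narf (−0.83 ± 0.17, p adj = 0.0103). Of the 5 genes of DNA methylation 0 were called by limma, edgeR or DESeq2, with 2 at an unadjusted p under 0.05 and 3 called higher with the replicate block. Of the 8 m6A writers and readers 1 rose, Ythdf2 (0.32 ± 0.094, p adj = 0.0305), and 2 rose with the block. Of 21 makers and users of 2-oxoglutarate, succinate and fumarate, 6 rose and 1 fell, and 12 rose and 2 fell with the block, led by Got1 (0.57 ± 0.11, p adj = 0.00811) and Idh3a (0.44 ± 0.092, p adj = 0.0102). P4hb, the partner subunit of P4ha1 and P4ha2, rose (0.22 ± 0.069, p adj = 0.0419). The background for these counts is the share of all genes given for the members, 13.3% lower and 14.6% higher, or 21.4% and 23.7% with the block.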

How the data were processed

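RNA-Seq libraries of murine Tc17 cells, 9 in all, were grouped by their labels into Ctrl, DMF and DMF + GSH (n = 3 each). Single reads of 50 bp had been aligned by the authors to GRCm38 with STAR (2.4.0b, per the submitters' processing notes) and counted per gene with featureCounts, and DESeq2 had been fitted with batch as a term. Strand handling is not stated in those sources. The deposited values are a signal per gene: read counts after division by the library's size factor, called normalized counts here. Columns with the authors' own fold changes and p-values were left unused. Each library's value of 1 read was read from its steps, and 100% of values above 0 were then whole reads (tolerance 0.01).

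Of 41388 genes, the 11599 with a mean of 10 or more were tested with limma-trend (limma 3.58.1, R 4.3.3). The model had group and batch, was fitted to log2(normalized count + 1) of all 9 libraries, and understates the fold changes of scarce genes. P-values were adjusted by Benjamini-Hochberg over the genes tested and called under 0.05, and intervals are 95%. For DMF against Ctrl limma called 3242 genes, and on the recovered reads edgeR's quasi-likelihood test (4.0.16) called 3276 and DESeq2 (1.42.0) 3074. The limma fits with batch and with a replicate block, edgeR and DESeq2 were first tested on simulated counts with known changes. The simulated counts held no batch or replicate effect, so how the fits handle such effects was not tested. Pseudocounts of 0.5 and 4, no minimum, a mean of 50 or more, TMM, quantiles, no batch term, the 6 compared libraries alone, robust eBayes, a replicate block and the omission of each library were the other alternatives.

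Libraries with the same replicate number in the labels deviated from their group means together: their correlation over genes was 0.447 to 0.578 in 9 of 9 pairs, and −0.471 to −0.0621 in the 18 pairs with unlike numbers. The numbers were therefore taken to pair the samples. Deviations cancel within each group, so positive correlations for like numbers push those for unlike numbers towards negative values. Batch and sex were not removed beforehand, and replicate 1 differed from the others in both. Where the block alters a count or call at an adjusted p under 0.05 among members or lists, its result is printed as well. This includes calls lost without 1 library. Members and gene lists were chosen with earlier results of these data known. Members called in any comparison, with or without the block, are given library by library. From each gene list at most 3 genes per comparison, in order of p, are named. The exception is Mina, which was named after its value was seen. Exon lengths and positions are from GENCODE vM21, which held 40340 of the 41388 identifiers. Python 3.11.15 with pandas 2.3.3 handled the tables, NumPy 2.4.6 the arithmetic and Matplotlib 3.10.9 the figures.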

Additional observations from a re-analysis of the deposited data

How the results depend on the processing

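The count of members called in DMF against Ctrl, 11, was 8 to 12 with the other pseudocounts, minimums, scalings, models and tools, and 19 with the replicate block. In DMF + GSH against DMF the count, 7, was 6 to 8 with these alternatives and 15 with the block. In DMF + GSH against Ctrl it was 0 under every alternative run. Leaving out 1 library gave 1 to 12 members in the first comparison and 0 to 9 in the second. With the replicate block as well, the first count was 12, 13, 17, 18, 19 or 20 and the second 10, 11, 12, 13, 14 or 15, depending on the library. The cause was not tested. The 11 members called in the first comparison had the same direction in every alternative run. P4ha2, Tet1, Alkbh2 and Alkbh7 rest on 12, 19, 33 and 50 reads in their smallest library, which limits what can be seen for them.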

Other observations

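In DMF + GSH against DMF, where 9.99% of all genes were higher and 12.4% lower (19.9% and 21.6% with the replicate block), the gene lists beside the members gave the following counts by limma. Of 23 genes of the HIF pathway, 6 were higher and 3 lower, and with the block 11 and 3. Bnip3l, a mitophagy receptor, was higher by 0.84 ± 0.15 (log2, SE; adjusted p = 0.0116), Hif1a was higher by 0.33 ± 0.063 (adjusted p = 0.0121), and Hk2, a hexokinase, had a log2 fold change of −0.62 ± 0.13 (adjusted p = 0.0134). Of 21 makers and users of 2-oxoglutarate, succinate and fumarate, 7 were lower, led by the aspartate aminotransferase Got1 (−0.56 ± 0.11, adjusted p = 0.013), and with the block 10 were lower and 2 higher. Of 22 histone methyltransferases 4 were higher, led by Kmt2c (0.43 ± 0.072, adjusted p = 0.0107), and 2 lower, and with the block 8 and 3. Of 21 other 2-oxoglutarate dioxygenases 1 was higher, Kdm7a (0.78 ± 0.13, adjusted p = 0.0107), and 1 lower, Mina (−0.32 ± 0.070, adjusted p = 0.0158), and with the block 5 and 2. Of 8 m6A writers and readers 1 was lower, Ythdf1 (−0.27 ± 0.068, adjusted p = 0.0224), and with the block 3 were. Of the 5 genes of DNA methylation limma called 0 (2 had an unadjusted p under 0.05), edgeR and DESeq2 each called 1 lower, and the block 3. Of the flavin-dependent demethylases 0 were called by limma, edgeR or DESeq2 (0 at an unadjusted p under 0.05), and 1 was lower with the block, Kdm1a (adjusted p = 0.0192). P4hb had a log2 fold change of −0.20 ± 0.069 (adjusted p = 0.0627, and 0.00329 with the block). These counts use the same DMF libraries as the comparison with Ctrl.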
